A study of Caenorhabditis elegans with 2 samples.

Results

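Peaks of the green fluorescent protein-tagged zinc finger protein ZTF-4 were described at 4 genes of stress resistance, autophagy and lifespan, wwp-1, hpk-1, epg-9 and ikke-1, out of 19973 protein-coding genes on the 6 nuclear chromosomes. The genes were chosen by the authors' own peak lists, since each has one of the highest chromatin immunoprecipitation sequencing (ChIP-seq) peaks in its body or within 2000 bp of it. Of 1794 peaks in all, 6 had their summit in that reach. The data came from 2 biological replicates of 1 group, whole L2 larvae of strain OP322 of Caenorhabditis elegans, pooled males and females. All animals carried the unc-119(ed3) mutation and the integrated transgene wgIs322, which expresses eGFP-tagged ztf-4. The labels give ztf-4 as the antibody and do not name the promoter of the transgene. The animals are whole larvae, so a peak cannot be placed in a cell type. A control entered the authors' peak calling but was not analysed here, and there is no second condition to compare with.

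The proteins of the 4 genes are known from different processes, among them protein folding, autophagy and lifespan. WWP-1 is a HECT-type ubiquitin ligase with WW domains that is known for its part in the longer life of worms on a restricted diet. HPK-1 is the worm's homeodomain-interacting protein kinase, which is known to preserve protein folding and normal lifespan through the heat shock factor HSF-1 and through autophagy. EPG-9 is the counterpart of mammalian ATG101, a subunit of the complex of UNC-51 kinase and ATG-13 that starts autophagosome formation. IKKE-1 is a kinase of the TBK1 and IKK-epsilon family, known in worms for acting on the autophagy receptor ALLO-1 when paternal mitochondria are removed after fertilisation.

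Sequences at 3 of the highest summits are shown because the places they occupy differ in base composition and because 2 of them share a stretch. They are the reference plus strand of ce11, read from the RefSeq copy of the genome (WBcel235). The hpk-1 peak (chrX:4209177-4209398, 222 bp) and the epg-9 peak (chrIV:2602062-2602262, 201 bp) are printed whole, and the ikke-1 peak is printed within 100 bp of its summit (chrIII:9051323-9051523). Capitals mark the word CGCG in the hpk-1 sequence, and in the other two the longest stretch that they share on either strand.
hpk-1: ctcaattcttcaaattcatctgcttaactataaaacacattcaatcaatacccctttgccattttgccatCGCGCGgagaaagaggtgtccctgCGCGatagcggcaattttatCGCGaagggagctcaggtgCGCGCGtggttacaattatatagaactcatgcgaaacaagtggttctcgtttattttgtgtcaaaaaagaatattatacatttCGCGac
epg-9: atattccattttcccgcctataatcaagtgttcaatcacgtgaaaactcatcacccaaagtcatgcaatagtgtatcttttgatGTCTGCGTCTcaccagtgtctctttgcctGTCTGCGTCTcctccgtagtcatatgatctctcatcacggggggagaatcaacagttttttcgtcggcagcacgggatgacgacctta
ikke-1: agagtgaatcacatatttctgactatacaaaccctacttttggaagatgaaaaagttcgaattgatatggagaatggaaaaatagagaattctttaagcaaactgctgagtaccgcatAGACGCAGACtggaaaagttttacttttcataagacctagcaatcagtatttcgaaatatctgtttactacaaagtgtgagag

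The shared stretch of 10 bases read GTCTGCGTCT at epg-9 and, as its reverse complement, AGACGCAGAC at ikke-1. It lay 2 times at epg-9, 29 bp apart, starting 28 bp before and 1 bp after the summit, and once at ikke-1, starting 18 bp after it. On either strand within 50 bp of the summit, 46 of the 1794 peaks (2.56%) held the stretch, as did 5 of the 50 highest peaks. Of the 30000 regions of the pooled list, 0.497% held it. These counts include the epg-9 and ikke-1 peaks, from which the stretch was taken. The summits at hpk-1 and wwp-1 did not hold the stretch within 50 bp. The hpk-1 summit had CGCG 6 times within 50 bp, counting overlaps, and wwp-1 had it 2 times, while epg-9 and ikke-1 had none. Only 6 of the 1794 peaks (0.334%), with hpk-1 among them, held CGCG at least 6 times, and 570 (31.8%) held it at all. Of the pooled regions, 0.0333% held CGCG at least 6 times and 10.4% held it at all. Both the stretch and CGCG were picked after the sequences were seen.

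GC content within 50 bp of the summit was 56.4% at hpk-1, 53.5% at wwp-1, 48.5% at epg-9 and 33.7% at ikke-1. The median over all peaks was 45.5% (quartiles 39.6 and 51.5%) and over the pooled list 33.7%. The highest peak at ikke-1 was thus poorer in G and C than most peaks, with 11.7% of peaks below it, and that at hpk-1 was richer than 90.7% of them. The 6-base words searched on both strands were chosen with earlier results of these peaks known. Of these, ACGCAG and GACGCA overlap each other and both lay within 50 bp of the epg-9 and ikke-1 summits. At both genes they lay inside the shared stretch, so they are the same bases and add no further likeness. They occurred in 14.99% and 14.2% of all peaks, and in 3.38% and 3.40% of pooled regions. GAGAGA (26.9% of peaks and 9.36% of pooled regions) and CGTCTC (16.7% and 4.34%) lay at epg-9, and at no other of the 6 summits. AGAGAG (22.8% and 7.70%) and GAGCGC (10.03% and 2.12%) lay at none of the 6. The A and T word AAAATT, held by 17.6% of peaks and 44.2% of pooled regions, lay at hpk-1 alone among the 6. A match describes the letters of the window and does not mark a site of binding.

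**Figure D1:**
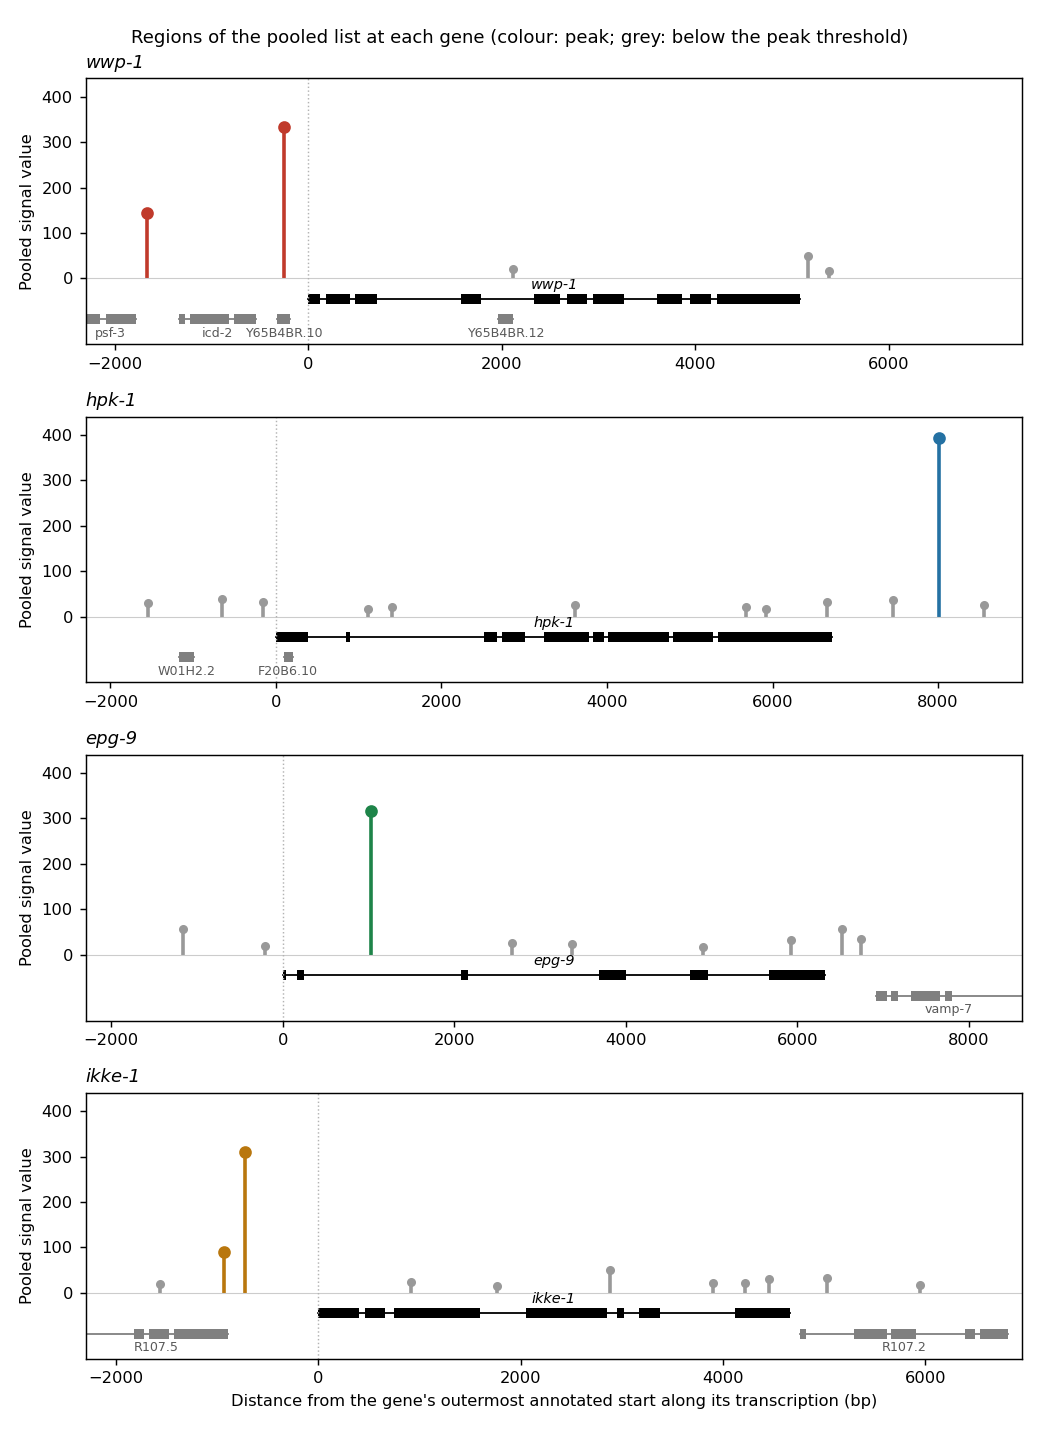
Signal value of every region of the pooled list (vertical axis, the authors' unit) by distance in bp from the outermost annotated start of each gene, along its transcription (horizontal axis). Coloured points are peaks, grey points are regions below the peak threshold, black boxes are exons of the named gene and grey boxes those of its neighbours. The highest peak lies 254 bp upstream at wwp-1, past the end of hpk-1, inside epg-9 and 723 bp upstream at ikke-1.

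The position of the highest peak differed from gene to gene, and at hpk-1 it was on the far side of the gene from its start sites. Over the whole set, the lowest peak signal was 60.2, the median 83.0 and the highest 843, while the first region below the peaks had 60.1, and 48.2% of peaks had a protein-coding start site within 500 bp. Signal values are the authors' own and rank regions within a list only. Of the 4 genes, wwp-1 alone had a peak within 500 bp of a start site, a class that held 5.18% of protein-coding genes. With the wider reach of 2000 bp all 4 had a peak because they were chosen for it, beside 12.02% of protein-coding genes, and nothing is read from that count. The highest summits of hpk-1, wwp-1, epg-9 and ikke-1 ranked 11th, 20th, 26th and 29th of the pooled list, and each lay in the 50 highest peaks.

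At wwp-1 (WBGene00007009, chrI:537122-542204, plus strand, 4 transcripts from 2 start sites) the highest peak covered chrI:536756-536966, with its summit 254 bp upstream of the outer start site. The pooled signal was 333, and the matched regions had 135 in replicate 1 and 199 in replicate 2. Their ranks were 32 and 17 of 30000, so both replicates placed it near the top of their lists. The summit fell inside Y65B4BR.10, an annotated noncoding RNA gene on the opposite strand (chrI:536804-536931), and 63 bp from its start, which was the nearest annotated start of any kind. A lower peak at chrI:535278-535641 had a pooled signal of 144 (rank 272), with 72.0 in replicate 1 (rank 238) and 77.8 in replicate 2 (rank 281). It lay 1408 bp from the higher summit. That lower summit was nearer to icd-2, a gene for the alpha subunit of the nascent polypeptide-associated complex, at 331 bp upstream of its start, than to wwp-1 at 1662 bp. It also lay 116 bp past the end of psf-3, which encodes a subunit of the GINS complex of DNA replication. Both wwp-1 peaks were in reach of icd-2 and psf-3 as well, so neither can be given to 1 gene from position alone. At the inner start of wwp-1 the nearest region, 274 bp upstream of it, had a pooled signal of 19.9 (rank 19227), below the peak threshold.

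At hpk-1 (WBGene00001994, chrX:4210571-4217290, minus strand, 5 transcripts from 5 start sites) the single peak had the highest signal of the 4 genes and lay 1294 bp downstream of the gene. Its pooled signal was 392 (rank 11), with 205 in replicate 1 (rank 10) and 199 in replicate 2 (rank 19). The replicate summits were 1 bp apart. The nearest start site of hpk-1 was 5284 bp away and the outermost 8013 bp. The peak stood in the 3085 bp between hpk-1 and F20B6.9, and the nearest protein-coding start was that of F20B6.9, 1792 bp away, with the summit upstream of it. An annotated pseudogene, WBGene00017631, started 1980 bp away. The pooled list had 2 regions within 500 bp of a start site of hpk-1, of which the higher had a signal of 31.8 (rank 7012), below the peak threshold. Other regions at the gene were also low, with the next highest at 39.4 (rank 4374), 652 bp upstream. The summit thus lay within 2000 bp of the gene's end and at none of its annotated starts. A peak near a gene does not show that the gene is regulated.

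At epg-9 (WBGene00022078, chrIV:2601141-2607464, plus strand, 3 transcripts from 3 start sites) the single peak lay in the gene body, in intron 2 of the longest transcript. The intron spans 1824 bp, and the summit was 785 bp past exon 2 and 1040 bp before exon 3. The pooled signal was 317 (rank 26), with 130 in replicate 1 (rank 38) and 189 in replicate 2 (rank 22). Replicate summits were 10 bp apart. The summit lay 1033 bp inside the outermost start site, 1070 bp upstream of the start of the middle transcript and 2684 bp upstream of the innermost. No protein-coding start was nearer to the summit than the gene's own, and no other gene lay within 2000 bp of the summit. Regions within 500 bp of an epg-9 start site reached a pooled signal of 24.4 (rank 12581). The highest regions that missed the threshold were 1161 bp upstream of the gene, at 56.8 (rank 1993), and 199 bp past its end, at 55.9 (rank 2066). The region past the end lay 6522 bp from the outermost epg-9 start. It was upstream of vamp-7, a gene of the same strand that begins 6910 bp from that start, so position alone does not give it to epg-9.

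At ikke-1 (WBGene00011299, chrIII:9046039-9050700, minus strand, 5 transcripts from 3 start sites) a region of 537 bp, chrIII:9051219-9051755, held 2 summits that the list gives as separate rows. The higher was 723 bp upstream of the outermost start, with a pooled signal of 310 (rank 29), 122 in replicate 1 (rank 44) and 195 in replicate 2 (rank 20). The lower was 204 bp away and 927 bp upstream, with a pooled signal of 89.2 (rank 765). Its values were 18.1 in replicate 1 (rank 6781) and 40.0 in replicate 2 (rank 1330), so it was within the first 1794 ranks in replicate 2 only. There it was below the median of 46.9 for the replicate 2 regions matched to peaks. The higher summit stood in the 895 bp between ikke-1 and R107.5, a gene of the same strand, 173 bp past its end. The lower fell in the 3' untranslated region of R107.5. No region of the pooled list lay within 500 bp of an ikke-1 start site. The next peak beyond the 2000 bp reach was only 2028 bp from the gene, inside R107.5, with a signal of 103 (rank 562), whereas the next peaks beyond wwp-1, hpk-1 and epg-9 were 75329, 5735 and 69047 bp away.

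**Figure D2:**
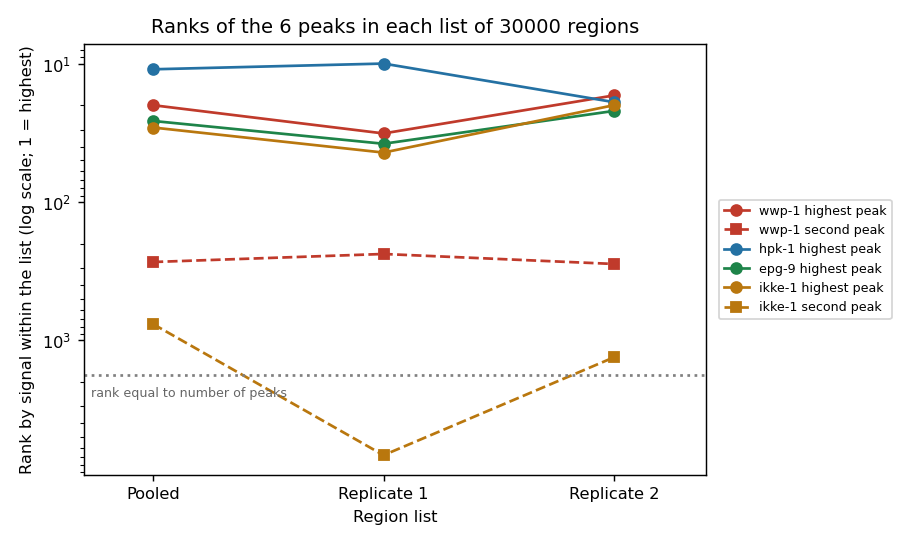
Rank by signal (vertical axis, log scale, 1 is the highest) of the 6 peaks in the pooled list and in each replicate's own list (horizontal axis). Circles and solid lines mark each gene's highest peak, squares and dashed lines the lower peaks at wwp-1 and ikke-1, and the dotted line the number of peaks, 1794. The highest peaks rank between 10 and 44 throughout, and the lower ikke-1 peak falls to 6781 in replicate 1.

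Both replicates placed the highest summit of each gene within the first 44 ranks, and the order of the genes changed between replicates. The genes were chosen for high peaks, and the pooled list shares reads with the replicate lists. High ranks in both replicates are therefore not independent of that choice. All of the 50 highest peaks were within the first 1794 ranks of both replicates, so this agreement does not set the genes apart from other high peaks. In replicate 1 the order from the top was hpk-1, wwp-1, epg-9 and ikke-1, and in replicate 2 it was wwp-1, hpk-1, ikke-1 and epg-9. In replicate 2 the signals ran only from 189 to 199, so neighbours in that order are close, and with 2 replicates no test of the order was made. Signals of wwp-1, epg-9 and ikke-1 were higher in replicate 2, as at 1224 of 1787 peaks matched in both, and that of hpk-1 was higher in replicate 1. By rank, which does not depend on how each list was scaled, 52.8% of matched peaks stood higher in replicate 2. The scaling is not stated, so the direction by signal is given for the lists alone. The 6 summits were between 1 and 49 bp apart in the replicates, and the median over matched peaks was 29 bp (quartiles 10 and 61). The matched regions at the highest wwp-1 and ikke-1 summits were 31 and 41 bp apart.

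**Figure D3:**
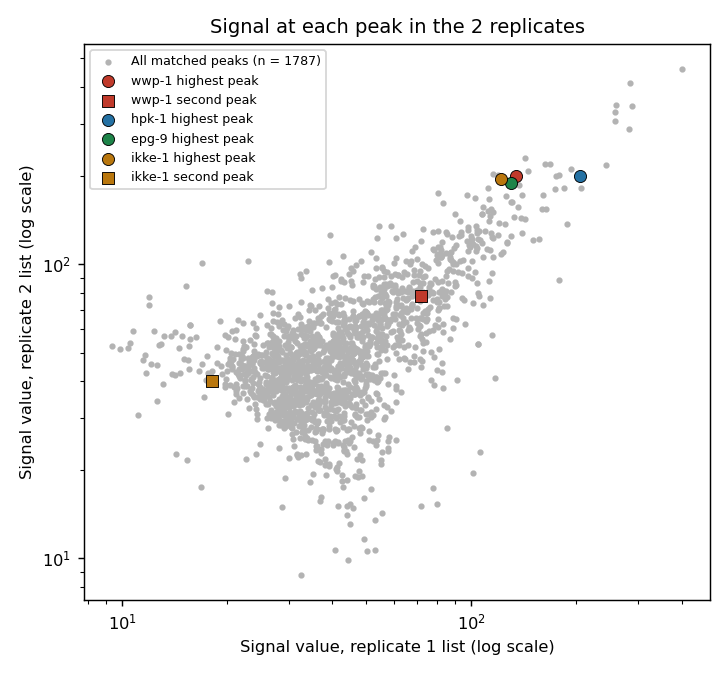
Signal value in the list of replicate 1 (horizontal axis) against that of replicate 2 (vertical axis), log scales, for 1787 peaks matched in both (grey), with the 4 genes in colour. The highest peaks of the 4 genes lie in the upper right, from 122 to 205 in replicate 1, and the lower ikke-1 peak lies at 18.1 and 40.0.

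All 6 peaks had the top −log10 q-value of the pooled list, 3.53, which 1696 regions shared, so this column does not order them. Widths of the highest peaks were 211 bp at wwp-1, 222 bp at hpk-1, 201 bp at epg-9 and 537 bp at ikke-1. None of the 50 highest peaks had the common width of 364 bp, which 1647 of the 1794 peaks had, and the lower wwp-1 peak was among those 1647. Over the reach of each gene the pooled list held 5 regions at wwp-1, 12 at hpk-1, 9 at epg-9 and 11 at ikke-1. Replicate 1's list held 7, 12, 8 and 10 there, and replicate 2's 5, 8, 11 and 9. The highest regions under the threshold were those at epg-9, with signals of 50.6 at ikke-1 (rank 2591, in an intron) and 50.3 at wwp-1 (rank 2623, 79 bp past its end) next. When each replicate's own 1794 highest regions took the place of the peaks, epg-9 had 2 in either replicate, and ikke-1 had 1 in replicate 1 and 2 in replicate 2.

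Genes nearest to the 4 in rank were sought by the summed absolute difference of log2 rank over 3 lists, the pooled one and those of the 2 replicates, which share reads. The nearest to epg-9 was ikke-1, and the nearest to ikke-1 was epg-9, at a summed difference of 0.51. R107.5 shares the ikke-1 peak and so took the second place at epg-9, where it hid the next peak. A peak at ranks 24, 30 and 23 was almost as near to epg-9, at 26, 38 and 22. The 4 genes were chosen for high peaks, which itself brings their ranks close. The next nearest to ikke-1 was rpl-12, which encodes a large ribosomal subunit protein, at 0.75 (ranks 23, 47 and 16). The nearest to wwp-1 were nspc-17 and nspc-18 on 1 shared peak, at 0.79 (ranks 24, 30 and 23), and to hpk-1 ZK1248.17 and H41C03.3 on 1 shared peak, at 0.90 (ranks 13, 15 and 18).

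Other genes of the same processes often had a peak in reach, and the highest of these outside the 4, at hif-1, had a signal of 275. Of 138 genes in 5 lists, 63 (45.7%) had a peak in the gene body or within 2000 bp, beside 12.02% of all protein-coding genes. Without the 4 genes themselves the count was 59 of 134 (44.0%). The lists were chosen with earlier results of these data known, which leaving out the 4 genes does not undo. These shares are therefore descriptions only. The median of the highest pooled signal, over the 120 of these genes with any region in reach, was 62.0, and 30.2 over the 13064 protein-coding genes with one. Among genes with any region in reach, 52.5% of the listed and 18.4% of all had a peak. Listed genes were also longer, with median lengths of 2609 bp for autophagy, 5030 bp for lifespan signalling and 4621 bp for stress regulators, against 2027 bp for all. A longer gene has a wider reach, and 9.51% of genes up to 2000 bp long and 20.5% of genes over 8000 bp had a peak. Within the autophagy list, however, genes with a peak had a median length of 2397.5 bp and those without one 2863 bp. In the lifespan list these medians were 6251 and 3941 bp, and in the stress list 6446 and 4221.5 bp. The part of length in the counts was not tested. Since 987 of the 1794 peaks were in reach of 2 or more protein-coding genes, a count does not say which gene a peak belongs to. The gene's own start was the nearest protein-coding start to its highest peak for 46 of the 63 listed genes and for 50.6% of all genes with a peak.

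**Figure D4:**
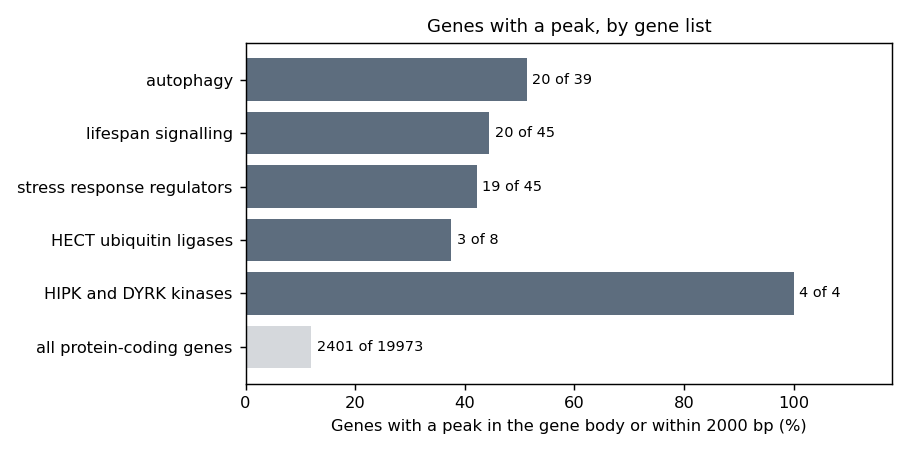
Percentage of the genes of each list with a peak in the gene body or within 2000 bp (horizontal axis), with the counts printed at the bars. The dark bars are the 5 lists, which overlap in hpk-1 and wwp-1, and the light bar is all protein-coding genes at 12.02%.

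Autophagy genes had a peak at 20 of 39, and 11 had a summit within 500 bp of a start site, beside 5.18% of all protein-coding genes. After epg-9 and ikke-1 the highest were lgg-2, an LC3 homologue of the autophagosome membrane, with a pooled signal of 239 (ranks 40 and 94 in replicates 1 and 2) and 302 bp upstream. Next were lgg-1, its GABARAP-like relative (206, ranks 197 and 66), atg-7, the enzyme that activates them for conjugation (170, ranks 269 and 180), and epg-7, a scaffold protein (151, ranks 286 and 233). The lgg-1 and atg-7 peaks were nearer to the start sites of C32D5.8 and klc-1. Of the partners of EPG-9, unc-51 had a peak of 96.7 at 1503 bp upstream, and atg-13 had no peak and a highest region of 26.8. For ALLO-1, the partner of IKKE-1, the gene had a peak of 72.3 at 232 bp upstream (rank 830 in replicate 1 and 2535 in replicate 2). These 3 partner genes were named after their values were seen.

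Lifespan signalling genes had a peak at 20 of 45, and 8 had a summit within 500 bp of a start site, again beside 5.18% of all. Below hpk-1 and wwp-1 stood mdl-1, a MAD-like transcription factor (202, ranks 94 and 139), rheb-1, the GTPase that activates the TOR kinase complex (169, ranks 228 and 191), and smk-1, a cofactor of the FOXO factor DAF-16 (161, ranks 342 and 131). The smk-1 peak lay 1301 bp upstream and was nearer to the start site of vps-60. The last of the 6 highest was mml-1, a Mondo-family factor (155, ranks 174 and 316), 1858 bp upstream. The gene klf-1, which encodes a Kruppel-like factor and was named after its value was seen, had a peak of 74.8 in its gene body. In the same list klf-3 had no peak and no region in reach, and ubc-18 had no peak and a highest region of 27.6. These were also named after their values were seen.

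Stress response regulators had a peak at 19 of 45, and 10 had a summit within 500 bp of a start site, where the share of all genes was 5.18%. The highest below hpk-1 was hif-1, the hypoxia-inducible factor, with 5 peaks in reach and a highest signal of 275 (ranks 104 and 29), 1930 bp upstream. Its regulator egl-9, a prolyl hydroxylase, had a peak of 155 (ranks 258 and 250) at 1754 bp upstream. A peak of 180 (ranks 126 and 164) lay 73 bp upstream of xbp-1, a factor of the unfolded protein response, and one of 157 (ranks 227 and 287) 86 bp upstream of wdr-23, which restrains the factor SKN-1. The zip-2 peak (149) ranked 75 in replicate 1 and 4170 in replicate 2, so it was near the top of 1 replicate's list only. The heat shock factor gene hsf-1, named after its value was seen, had no peak and a highest region of 28.9.

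Relatives of WWP-1 and HPK-1 were few. Of 8 HECT ligase genes 3 had a peak, wwp-1, eel-1 (131, ranks 413 and 377, 600 bp upstream) and hecw-1 (70.8, ranks 2552 and 1540), whose peak was nearer to the start of elmd-1. All 4 genes of the HIPK and DYRK kinase list had one. The highest after hpk-1 was mbk-1, a DYRK1-type kinase gene, whose peak of 194 (ranks 88 and 169) lay 918 bp downstream of the gene, 5549 bp from its nearest start and nearer to that of epn-1. The other 2 were prpf-4, a gene for a kinase of pre-mRNA splicing (73.2, ranks 3086 and 809), at 307 bp upstream, and mbk-2 (61.8, ranks 1586 and 4538), in the gene body. Of all protein-coding genes 12.02% had a peak. Without wwp-1 and hpk-1, which were chosen for their peaks, the counts were 2 of 7 and 3 of 3. Median gene lengths were 10543 bp for the HECT list and 5676 bp for the kinase list, against 2027 bp for all. With 8 and 4 genes these counts are descriptions only.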

How the data were processed

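ChIP-seq libraries of 150 to 350 bp, per the labels, came from 2 biological replicates. The authors deposited region lists in narrowPeak columns. Signal values were used as the authors deposited them, and no source used here gives their scaling. By the order of narrowPeak columns, another deposited column holds −log10 q-values. Per the deposited listing of derived files, each replicate's list was made from its alignments and a control, and the peak list from the pooled and replicate lists. The 1794 peaks passed the authors' irreproducible discovery rate threshold. For the aligner, the caller and the threshold's value, the sources used here name none. The files hold no read counts, so depth is unknown and no counting interval is given.

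All coordinates are ce11, the assembly of the annotation (Ensembl release 115, WBcel235). The ce10 lists were not used here. A summit was the deposited start plus summit offset, and a gene was in reach of it within its body or 2000 bp. A replicate's region was matched to a peak by an overlap of at least 1 bp and the nearest summit. Sequence words were scored on both strands within 50 bp. Of 139 listed gene symbols 138 matched the annotation. Assignment was tested on simulated data. Python 3.11.15 and pandas 2.3.3 were used. Every result is descriptive, because the genes were selected on these peaks and there is 1 group. The genes and lists were chosen with earlier results of these data known. Named genes were the 4 genes, neighbours sharing their peaks, the 6 highest of each list and the 2 nearest in rank. Others, unc-51, atg-13, allo-1, klf-1, klf-3, ubc-18 and hsf-1, were named after their values were seen. The gene vamp-7 was added later, as the neighbour of a region below the threshold. Alternatives were other distances (the gene body alone, 500 and 1000 bp, and 500 bp from a start site) and any base of the region. Others were the 897 highest peaks, 1138 peaks taken as in the top of both replicates, and each replicate's own highest regions.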

Additional observations from a re-analysis of the deposited data

How the results depend on the processing

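Assignment distance decided the counts most. With the gene body alone, 1 of the 4 genes had a peak (epg-9, 1 peak), as did 449 protein-coding genes (2.25%), 5 autophagy, 8 lifespan, 10 stress, 1 HECT and 1 kinase gene. With 500 bp around the body, 2 of the 4 had one (wwp-1 and epg-9, 2 peaks), as did 1556 genes (7.79%) and 2 kinase genes. Within 500 bp of a start site, wwp-1 was the 1 gene left with 1 peak, and 1034 genes (5.18%), 11 autophagy, 8 lifespan, 10 stress and 2 kinase genes had one. The 897 highest peaks gave 1350 genes (6.76%), 11 autophagy, 12 lifespan, 12 stress and 2 kinase genes. The setting of peaks in the top of both replicates kept 1138 peaks. It gave 1641 genes (8.22%), 12 autophagy, 14 lifespan, 18 stress and 2 kinase genes. By the nearest-summit match only 1091 peaks had both ranks within the first 1794, so this setting was looser than that match. It kept both ikke-1 peaks, although the lower one ranked 6781 in replicate 1. Of the counts and shares over the 4 genes, the lists and all genes, 30 moved by over 1.5 times and 51 did not. Of the values for single genes 18 were labelled as moved and 26 were not. These mix counts of peaks with percentiles of rank, to which the ratio of 1.5 does not apply. The epg-9 percentile was labelled as moved on going from 99.91 to 99.87 without replicate 2. With either replicate's own highest regions all 4 genes had one, with 6 to 7 regions, and 16 autophagy, 18 to 19 lifespan and 20 to 21 stress genes did. Of all protein-coding genes 11.72 to 11.996% had one there. With 1000 bp around the body hpk-1 had none. Depth is unknown, so a gene without a peak is one with none in these lists.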
